A study of Mus musculus with 4 samples.

Results

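Mitosis, kinesin and kinetochore genes were taken by name: the kinesin motors (Kif), the centromere proteins (Cenp), the Aurora, Bub and Polo-like kinases, cyclins A and B, the Cdc20 and Cdc25 names, Mad2l1, and 9 further genes of mitosis (Mki67, Top2a, Nusap1, Hmmr, Gtse1, Tpx2, Cdk1, Ube2c and Birc5). The rule matched 74 of 24190 gene symbols, and for 68 of these 2 or more of the 4 libraries reached 1 TPM. TPM is a length-scaled share of transcripts, so levels can be set side by side between genes. The 6 matched symbols that did not reach this level were the kinesin genes Kif19a, Kif21b and Kif26a, the pseudogenes Kif22-ps and Kif4-ps, and Kif16bos, a transcript named as the opposite strand of Kif16b. Just inside the limit stood Kif24, whose second highest value was 1.647 TPM, then Cenpl (3.277 TPM) and Kif3c (4.982 TPM). Just outside stood Kif19a (0.432 TPM), Kif21b (0.256 TPM) and Kif26a (0.231 TPM).

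All libraries came from E14 (ES-E14TG2a), a male mouse embryonic stem cell line long in use, kept without serum in medium with a MEK inhibitor (PD0325901) and a GSK3β inhibitor (CHIR99021). Both clonal reporter lines carried an integrated Zscan4c promoter, which drove GFP in the GFP line and a fusion of GFP to Zscan4c in the GFP-Zscan4c line. Each line was sorted into GFP-negative cells, labelled pluripotent, and GFP-positive cells, labelled 2C-like after the 2-cell embryo. Each of the 4 populations is 1 poly-A library, so no value below has a replicate error, and a difference between lines is also a difference between clones. The 4 values of a gene are given with the GFP line first and the GFP-Zscan4c line after it, and within each line the GFP-negative library comes before the GFP-positive one. In sorted bulk samples, fewer cells in mitosis and less RNA per cell cannot be told apart.

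Cells enter mitosis when Cdk1 bound to cyclin B becomes active, a step that Cdc25 phosphatases allow and Polo-like kinase supports. Kinetochores are built on centromeric chromatin that holds Cenpa, and they attach chromosomes to microtubules moved and shaped by mitotic kinesins. The spindle checkpoint (Bub and Mad proteins) holds the anaphase-promoting complex and its activator Cdc20 inactive until all chromosomes are attached. Embryonic stem cells divide fast, with short gap phases. Transcripts of this programme are known to peak in G2 and M phase and are bound at their promoters by the MuvB complexes with Mybl2 and Foxm1.

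The GFP line's GFP-negative library stood apart from the rest: 48.4% of all symbols were listed at 0 in it, against 11.6% to 19.5% in the other 3. The depth of the libraries is unknown, because TPM keep no counts, and an exact 0 cannot be read as absence. The sort itself was seen in Zscan4c, at 9.24 and 497 TPM in the GFP line and at 4.11 and 366 TPM in the GFP-Zscan4c line, where transcripts of the gene and of the fusion cannot be told apart. Of 12 markers of the 2C-like state, 11 were 2-fold or more higher in GFP-positive cells of both lines. The embryonic stem cell markers Pou5f1, Sox2, Nanog and 5 more summed to between 2866 and 3528 TPM in every library. Of these 8, Tbx3 and Klf4 were 2-fold or more apart in each line and the others in neither. Tbx3 was at 29.1, 101, 32.0 and 102 TPM, and Klf4 at 187, 69.5, 40.1 and 118 TPM. Of other cell types, the fibroblast collagens Col1a1 and Col1a2 were at 0.114 TPM or less, and Foxa2 of primitive endoderm at 0.207 TPM or less. In each of the fibroblast, primitive endoderm and trophectoderm lists 1 marker had a listed 0 in each GFP-negative library and a value above 0 in each GFP-positive one. These were Thy1 (11.9 and 7.27 TPM in the GFP-positive libraries), Gata4 (1.64 and 2.13 TPM) and Eomes (2.64 and 3.42 TPM). The marker lists summed to 8.16 to 310 TPM for fibroblasts (2 of 8 above the limit, nearly all of it Vim), 35.8 to 249 TPM for primitive endoderm (2 of 8, nearly all of it Sparc), 38.3 to 66.6 TPM for trophectoderm (4 of 8) and 40.9 to 78.7 TPM for neural cells (3 of 5). The part of such cells in the results below was not tested.

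In 3 of the 4 libraries most of the 68 genes stood at like levels, whatever the GFP status. Over the GFP line's GFP-positive library and both libraries of the GFP-Zscan4c line, 50 of the 68 (73.5%) had a highest value no more than 1.5 times their lowest, against 56.4% of the 14379 genes tested. Their summed level was 2875, 2588 and 3146 TPM in these libraries, and 1918 TPM in the GFP line's GFP-negative library. The median gene was at 26.9, 23.1 and 25.9 TPM, and at 9.07 TPM in the GFP line's GFP-negative library. That library listed 23 of the 68 at 0 (33.8%, against 27.3% of all genes tested), and no member was listed at 0 in any other library (against 1.0%, 2.87% and 0.786% of all genes, in order). All 68 have a listed protein-coding transcript. Of the 10671 genes tested with such a transcript (coding genes below), 32.7% were at 0 in the GFP line's GFP-negative library, near the share of the members. Among genes averaging 5 to 100 TPM over the other 3 libraries, the shares were 35.0% of 60 members and 26.6% of 7622 coding genes.

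**Figure D1:**
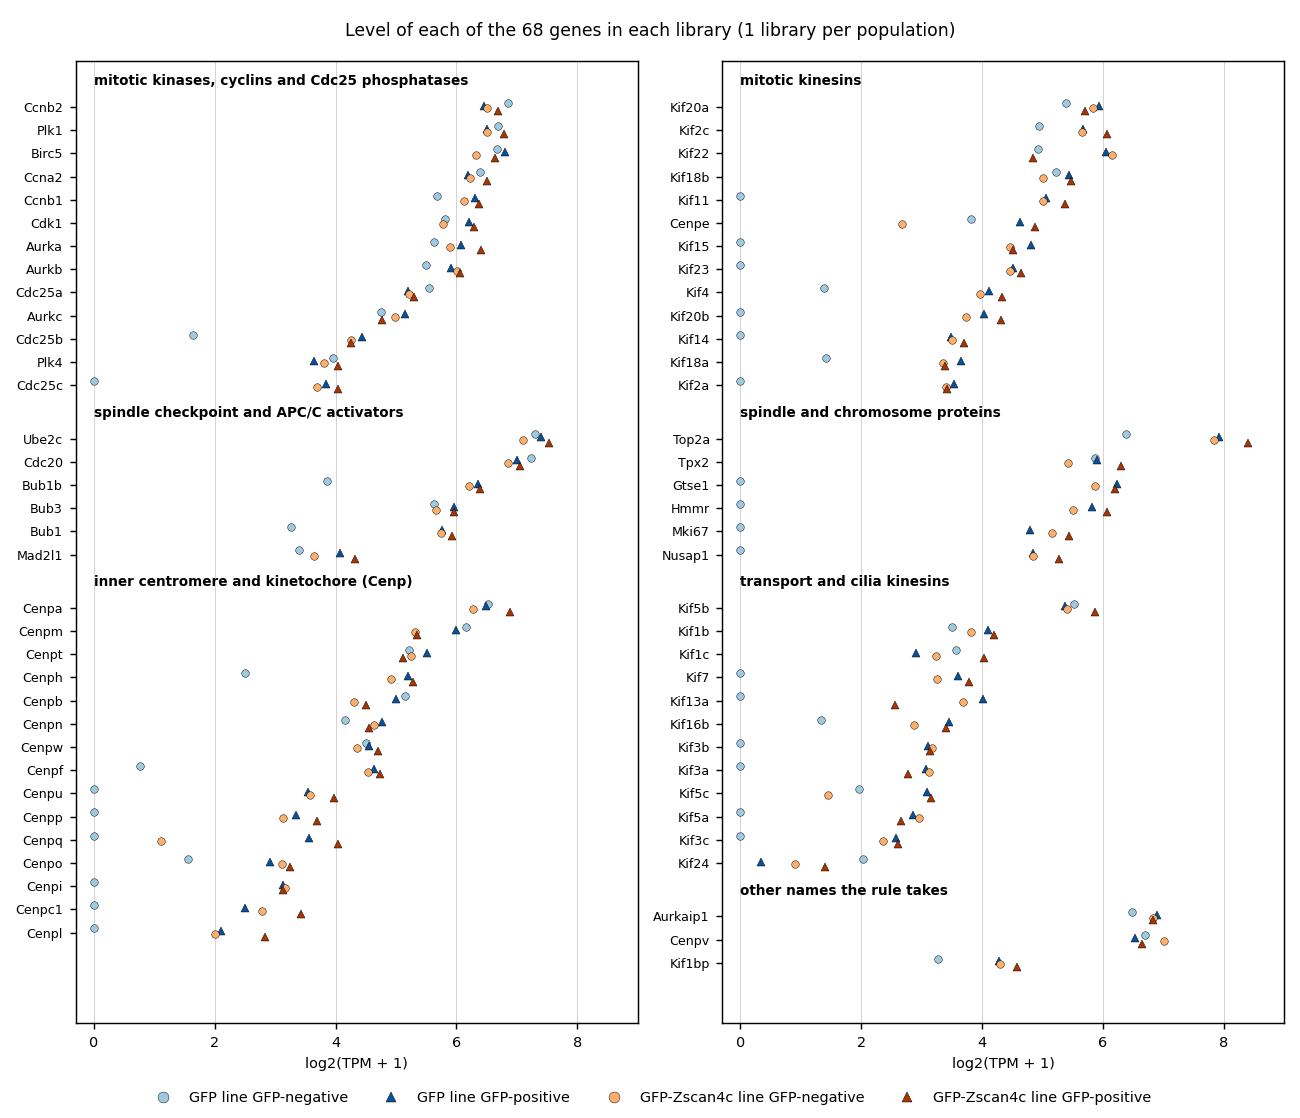
Level of each of the 68 genes, as log2(TPM + 1), in the 4 libraries, grouped by role and ordered by mean level; circles are GFP-negative and triangles GFP-positive populations, 1 library each. Most genes have 3 symbols close together, and 23 have the symbol of the GFP line's GFP-negative library at 0.

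Among the kinases, cyclins and phosphatases that start mitosis, the genes with the highest mean levels were abundant in every library. Ccnb2, a B-type cyclin, was at 114, 86.8, 90.1 and 102 TPM. Plk1, the Polo-like kinase of mitotic entry, was at 102, 89.6, 90.1 and 110 TPM. Birc5, which encodes survivin of the chromosomal passenger complex, was at 101, 111, 79.1 and 98.5 TPM. These 3 genes held their level in the GFP line's GFP-negative library too.

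Ccna2, the S and G2 phase cyclin, was at 82.6, 72.2, 73.9 and 90.0 TPM. Cdk1, the kinase that both cyclins activate, was at 55.4, 72.6, 54.1 and 76.9 TPM, higher in the GFP-positive library of each line (log2 ratios of 0.38 and 0.50). Aurka, the Aurora kinase of centrosomes and spindle poles, had ratios of 0.44 and 0.52, and Aurkb, the kinase of the passenger complex, 0.40 and 0.05, the latter turning to -0.11 under median-ratio scaling and to -0.07 under quantile normalization. Ratios are of TPM + 1, GFP-positive over GFP-negative, GFP line first.

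None of the 13 genes of this group was 2-fold apart in the GFP-Zscan4c line, and 11 of the 13 were higher there in GFP-positive cells by any amount, with a median log2 ratio of 0.24 (67.1% of all genes were higher there, with a median of 0.15). In the GFP line 2 of the 13 were 2-fold or more higher (15.4%, against 37.4% of all genes), and both are Cdc25 phosphatases, which remove inhibitory phosphates from Cdk1. Cdc25b was at 2.12, 20.7, 18.1 and 18 TPM, and Cdc25c was listed at 0, then at 13.3, 12 and 15.4 TPM. In both, the GFP line's GFP-negative library was the low one and the other 3 were alike. The third phosphatase, Cdc25a, was at 45.5, 35.6, 36.2 and 38.4 TPM, with no low library.

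The genes of the spindle checkpoint and of the activation of the anaphase-promoting complex differed in pattern. Ube2c, the ubiquitin-conjugating enzyme of the anaphase-promoting complex, was at 157, 167, 137 and 183 TPM, Cdc20 at 150, 127, 114 and 132 TPM, and Bub3, which carries Bub1 and Bub1b to kinetochores, at 48.4, 61.1, 49.6 and 61.1 TPM. Bub1b (BubR1), which restrains Cdc20, was at 13.5, 81, 73.2 and 82.9 TPM. Bub1, the kinetochore kinase, was at 8.58, 53.0, 52.7 and 60.1 TPM. The first 3 were even over all libraries, while Bub1b and Bub1 were low in the GFP line's GFP-negative library and alike in the others. Mad2l1, the checkpoint protein that binds Cdc20, was at 9.46, 15.9, 11.5 and 18.9 TPM and had like ratios in both lines (0.69 and 0.67).

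All 6 of these genes were higher in the GFP-Zscan4c line's GFP-positive cells, and none by 2-fold, with a median log2 ratio of 0.25. Of all genes 67.1% were higher there, 9.52% by 2-fold or more, with a median of 0.15.

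The centromere and inner kinetochore genes did not divide by level alone. Cenpa, the histone H3 variant that marks centromeres, was at 91.1, 88.5, 76.4 and 117 TPM. Cenpm, of the constitutive inner kinetochore complex, was at 70.7, 62.5, 38.6 and 39.8 TPM, so it was higher in both libraries of the GFP line than in both of the GFP-Zscan4c line. Cenpt, which reaches from centromeric chromatin to the outer kinetochore, was at 36.1, 44.8, 37 and 33.6 TPM, and Cenpw, its histone-fold partner, at 21.8, 22.5, 19.4 and 24.9 TPM.

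Others were lowest in the GFP line's GFP-negative library. Cenpc1, which links Cenpa chromatin to the outer kinetochore, was listed at 0, then at 4.65, 5.89 and 9.72 TPM. Cenpl was listed at 0, then at 3.28, 3 and 6.15 TPM, and Cenpp at 0, then at 9.15, 7.75 and 12 TPM. Cenph was at 4.69, 35.6, 29.2 and 37.9 TPM. The GFP line's GFP-negative library listed 6 of the 15 genes at 0 (40.0%, against 27.3% of all genes and 32.7% of coding genes). The median log2 ratio in the GFP-Zscan4c line was 0.34, with 12 of 15 higher in GFP-positive cells (80.0%, against 67.1%) and 1 by 2-fold or more, Cenpq.

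Of the 4 mitotic kinesins with the highest mean levels, Kif22 is described with the comparison of the lines. Kif20a, a kinesin of the central spindle and cytokinesis, was at 40.9, 60.0, 56.2 and 50.8 TPM. Kif2c (MCAK), which takes microtubules apart at kinetochores, was at 29.8, 49.6, 49 and 65.7 TPM. Kif18b, a plus-end kinesin, was at 36.4, 42.4, 31.1 and 43.2 TPM. All of these were above 0 in every library, and Kif2c was lowest in the GFP line's GFP-negative library.

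Kif11 (Eg5), which pushes the spindle poles apart, was listed at 0, then at 32.1, 31.1 and 40.3 TPM. Kif15, which acts beside Kif11, was listed at 0, then at 26.9, 21 and 21.9 TPM. Kif23 (MKLP1), of the cytokinetic centralspindlin complex, was listed at 0, then at 21.9, 21 and 23.9 TPM. For each of them the other 3 libraries were alike. Kif20b was listed at 0, then at 15.4, 12.3 and 18.8 TPM. In all, 6 of the 13 mitotic kinesins were at 0 in the GFP line's GFP-negative library (46.2%). The share was 27.3% of all genes and 32.7% of coding genes, and no fold is given against a listed 0.

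Among the proteins of spindles and mitotic chromosomes, 4 of 6 were listed at 0 in the same library (66.7%, against the same 27.3% and 32.7%): Gtse1 (0, then 74.1, 57.3 and 72.3 TPM), Hmmr (0, then 55.2, 44.4 and 65.6 TPM), Mki67 (0, then 26.8, 34.5 and 42.1 TPM) and Nusap1 (0, then 27.5, 27.8 and 37.6 TPM). Mki67 encodes the Ki-67 protein that coats mitotic chromosomes, and Hmmr, Gtse1 and Nusap1 encode microtubule-binding spindle proteins. Tpx2, which activates Aurka on the spindle, was at 57.1, 58.8, 41.9 and 77.9 TPM. All 6 were higher in the GFP-Zscan4c line's GFP-positive cells, with a median log2 ratio of 0.49, the highest of the role groups, and none reached 2-fold. Again, 67.1% of all genes were higher there, 9.52% by 2-fold or more, with a median of 0.15.

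Kinesins of transport and cilia were lower in level. Kif5b, the ubiquitous heavy chain of conventional kinesin, was at 44.7, 40.2, 41.2 and 57.5 TPM, and the other 11 averaged from 1.46 to 14.2 TPM over the libraries. Kif3a and Kif3b, which form the motor of ciliary transport, were listed at 0 and then at 7.4, 7.73 and 5.81 TPM and at 7.62, 8.02 and 7.78 TPM. Kif7, a kinesin of Hedgehog signalling at the cilium, was listed at 0 and then at 11.1, 8.56 and 12.7 TPM. The GFP line's GFP-negative library listed 6 of the 12 at 0 (50.0%, against 27.3% of all genes and 32.7% of coding genes).

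The names also took 3 genes outside these roles. Aurkaip1, a mitochondrial ribosome protein gene, was at 87.9, 118, 112 and 113 TPM. Cenpv was at 103, 91.4, 127 and 99.3 TPM. Without scaling between libraries, it was the only member lower in GFP-positive cells of both lines (log2 ratios of -0.17 and -0.35). Kif1bp, a kinesin-binding protein gene, was at 8.68, 18.4, 18.7 and 22.9 TPM.

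The first comparison the design allows is that of the GFP line's GFP-positive cells with its GFP-negative cells. Among the 45 genes above 0 in both of its libraries, 13 were 2-fold or more higher in GFP-positive cells (28.9%, against 16.2% of all genes so chosen) and 1 was lower (2.22% against 7.89%). This choice does not remove zeros of single transcripts. For all of the 13 but Top2a and Kif22, the longest listed coding transcript was at 0 in the GFP-negative library. The gene 2-fold lower was Kif24, a ciliary kinesin, at 3.06 and 0.27 TPM. Both values lay on a processed transcript of 705 bases, and the coding transcripts of Kif24 were at 0 in both libraries. With the 23 listed at 0 the count was 36 of 68 higher (52.9%, against 37.4% of all genes tested) and 1 lower (against 5.88%). The median log2 ratio was 1.13 over all 68 and 0.40 over the 45, where a ratio against a listed 0 rests on the pseudocount, against 0.32 over all genes and 0.01 over all genes above 0 in all libraries. Since 1 library per population was sequenced, these counts carry no test.

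The same comparison in the GFP-Zscan4c line, where no member was listed at 0, gave 3 of 68 genes 2-fold or more higher (4.41%, against 9.52% of all genes tested) and 2 lower (2.94% against 3.79%). Of all genes above 0 in both of its libraries, as all 68 were, 6.99% were higher and 3.19% lower. By any amount, 56 of the 68 were higher in GFP-positive cells (82.4%, against 67.1% of all genes). Part of that lean was shared by all genes: their median log2 ratio was 0.15 and that of the members 0.28. Scaling by median ratios brought all genes to 0.00 and the members to 0.13, with 48 of 68 higher, and quantile normalization gave 0.14 with 45 of 68 higher. Without scaling, 13 of the 68 lay over 1.5 times higher in GFP-positive cells, 2 lay over 1.5 times lower, and 53 lay within 1.5 times of each other (77.9%, against 70.7% of all genes). Of the 14379 genes tested, 2585 lay over 1.5 times higher, 1103 lay over 1.5 times lower, and 519 had a listed 0 in either library.

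**Figure D2:**
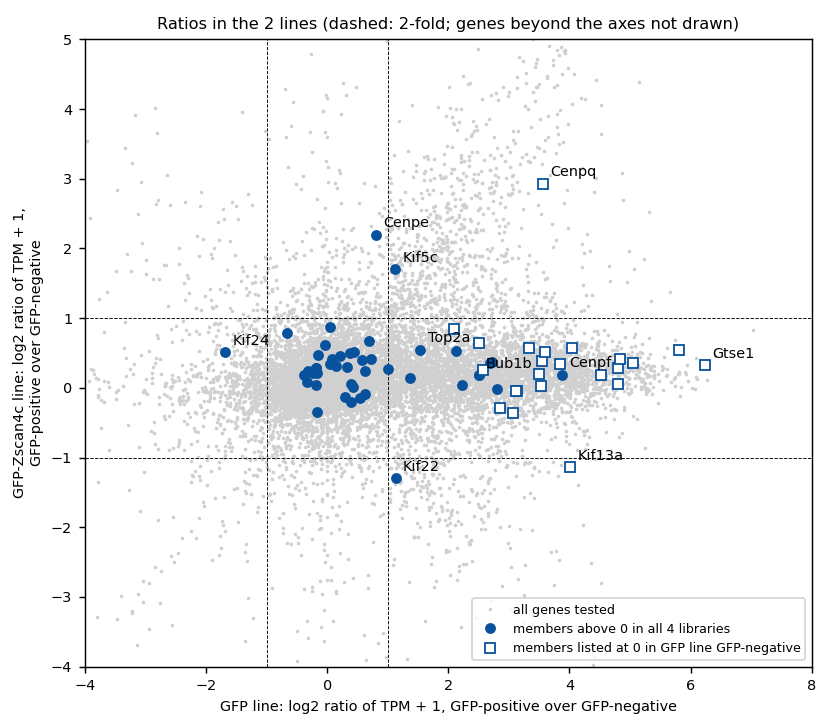
Log2 ratio of TPM + 1, GFP-positive over GFP-negative, in the GFP line (x) and the GFP-Zscan4c line (y); each point is 1 gene, grey for all genes tested, and open squares are members listed at 0 in the GFP line's GFP-negative library. The x values of the open squares rest on the pseudocount. Members stay within 1 of 0 on the y axis except for Cenpq, Cenpe, Kif5c, Kif22 and Kif13a.

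Only Cenpq and Kif5c of the 68 were 2-fold or more higher in both lines (2.94%, against 6.58% of all genes), and none was 2-fold lower in both (against 0.695%). Cenpq (ENSMUSG00000023919, GRCm38 chr17:40923051-40935047), a gene of the constitutive inner kinetochore complex, was listed at 0 and then at 10.8 TPM in the GFP line, and at 1.16 and 15.5 TPM in the GFP-Zscan4c line. Both GFP-negative libraries were low and both GFP-positive ones high. The gene shares 95 exon bases with Mut on the other strand, and the protocol names no step that marks strand. Other members share more exon bases with a gene on the other strand. Among them are Kif3c (2617 with 1110002L01Rik), Cenpo (1380 with Adcy3), Kif20a (1271 with Cdc23) and Kif2a (1229 with Dimt1). Kif5c, a conventional kinesin heavy chain best known in neurons, was at 2.91, 7.47, 1.73 and 7.91 TPM, again with both GFP-positive libraries above both GFP-negative ones. Its ratio in the GFP line was 1.12 and turned to -0.09 under quantile normalization, and with a pseudocount of 5 TPM neither of its ratios reached 2-fold.

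Cenpe, the large kinesin of the outer kinetochore that brings chromosomes to the spindle equator, was the other member 2-fold higher in the GFP-Zscan4c line. It was at 13.1, 23.6, 5.39 and 28.4 TPM, with log2 ratios of 0.80 and 2.20. Both GFP-positive libraries lay above both GFP-negative ones.

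The 2 members 2-fold lower in the GFP-Zscan4c line's GFP-positive cells went the other way in the GFP line. Kif22 (Kid), a chromosome-arm kinesin, was at 29.3, 65.5, 69.9 and 27.8 TPM, so the GFP-Zscan4c line's GFP-positive library and the GFP line's GFP-negative library were the low ones. Kif13a, a kinesin of endosome transport, was listed at 0, then at 15.1, 11.9 and 4.86 TPM. Its ratio in the GFP-Zscan4c line was -1.14. Over all genes, 2.59% were 2-fold apart in opposite directions in the 2 lines, and 2.94% of the members were.

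Over both lines, limma with GFP status and line as terms called 0 of the 68 genes at an adjusted p of 0.05 (Benjamini-Hochberg over 14379 genes, of which 0 were called, 0.0%). The smallest adjusted p among the members was 0.491, for Cenpq (log2 ratio 3.25, standard error 0.80, with its listed 0 at the pseudocount). Unadjusted p under 0.05 was reached by 2 members, Cenpq and Top2a (2.94%, against 6.76% of all genes). The residual in this fit is how far the 2 lines disagree, on 1 degree of freedom per gene. limma draws this error toward a trend fitted over all genes, so the standard errors and p-values rest partly on other genes. Under quantile normalization the same fit called 5 members (7.35%, against 2.28% of all genes): Bub1, Kif11, Mki67, Nusap1 and Top2a. With 1 library left out the line term could not be kept, and the model held GFP status alone. Without the GFP-Zscan4c line's GFP-negative library, that model called 33 of the 68 (48.5%) and 4204 of the 14379 genes (29.2%), with a smallest adjusted p of 0.0108. It sets the GFP line's GFP-negative library, alone in its arm, against the spread between the 2 GFP-positive libraries and assumes that the lone library varies like them. Nothing in the labels says that the libraries came from separate cultures, so a p-value measures only the spread between these 4 libraries.

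The deposited tables list single transcripts. For each gene the longest listed protein-coding transcript was set apart from the rest, by length alone. In the GFP line's GFP-negative library that transcript was at 0 for 41 of the 68 genes (60.3%), close to the 57.5% of all genes tested that had such a transcript. In the other libraries, in order, it was at 0 for 1, 4 and 0 of the 68, against 6.51%, 10.3% and 5.81% of all such genes. For 18 of the 41, other transcripts of the gene were above 0, so the gene as a whole was not listed at 0. That also held for 2652 of the 6137 genes with this transcript at 0 among all genes so tested.

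Bub1b is an example. Its transcript of 3668 bases was at 0, 79.2, 71.5 and 80.3 TPM, while its other 3 listed transcripts, annotated by GENCODE as retained introns with a median length of 574 bases, summed to 13.5, 1.76, 1.67 and 2.57 TPM. Bub1 had 42.4, 43.9 and 52.2 TPM on its transcript of 3421 bases in the other 3 libraries and 0 in this one, where the remaining transcripts summed to 8.58 TPM. In both genes the long transcript carried the level in 3 libraries and the short ones carried it in the fourth.

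Cdk1, at a similar total in all libraries, differed within the gene as well. Its transcript of 4375 bases was at 31.7, 63.1, 45.5 and 59.9 TPM and the other transcripts at 23.7, 9.48, 8.53 and 17.1 TPM. Top2a, the topoisomerase that untangles sister chromatids, was at 82.4, 242, 228 and 335 TPM as a whole. Of this, 31.8, 174, 151 and 195 TPM were on the transcript of 5221 bases. Summed over the 68 genes, the longest transcripts held 1113, 1871, 1752 and 2071 TPM, and the others held 42.0%, 34.9%, 32.3% and 34.2% of the total. Over all genes with a listed coding transcript the others held 34.1%, 31.0%, 30.9% and 31.3%.

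The 3 members 2-fold higher in the GFP-Zscan4c line all had their longest transcript at 0 in both GFP-negative libraries. Cenpe had 0, 16.8, 0 and 20.3 TPM on its transcript of 7910 bases, and 13.1, 6.8, 5.39 and 8.09 TPM on the others. Cenpq had 0, 5.6, 0 and 8.09 TPM on its transcript of 1942 bases, and 0, 5.25, 1.16 and 7.41 TPM on the other. Kif5c had 0, 3.96, 0 and 6.08 TPM on its transcript of 6856 bases. Kif24 was the only other member with 0 there in both, and its transcript was at 0 in a GFP-positive library too. In Cenpe and Kif5c the shorter transcripts alone did not separate the GFP-positive from the GFP-negative libraries. For Kif22 the transcript of 2115 bases was at 11.9, 61.3, 66.3 and 20.4 TPM, so its low value in the GFP-Zscan4c line's GFP-positive library lay on that transcript and was not a listed 0.

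**Figure D3:**
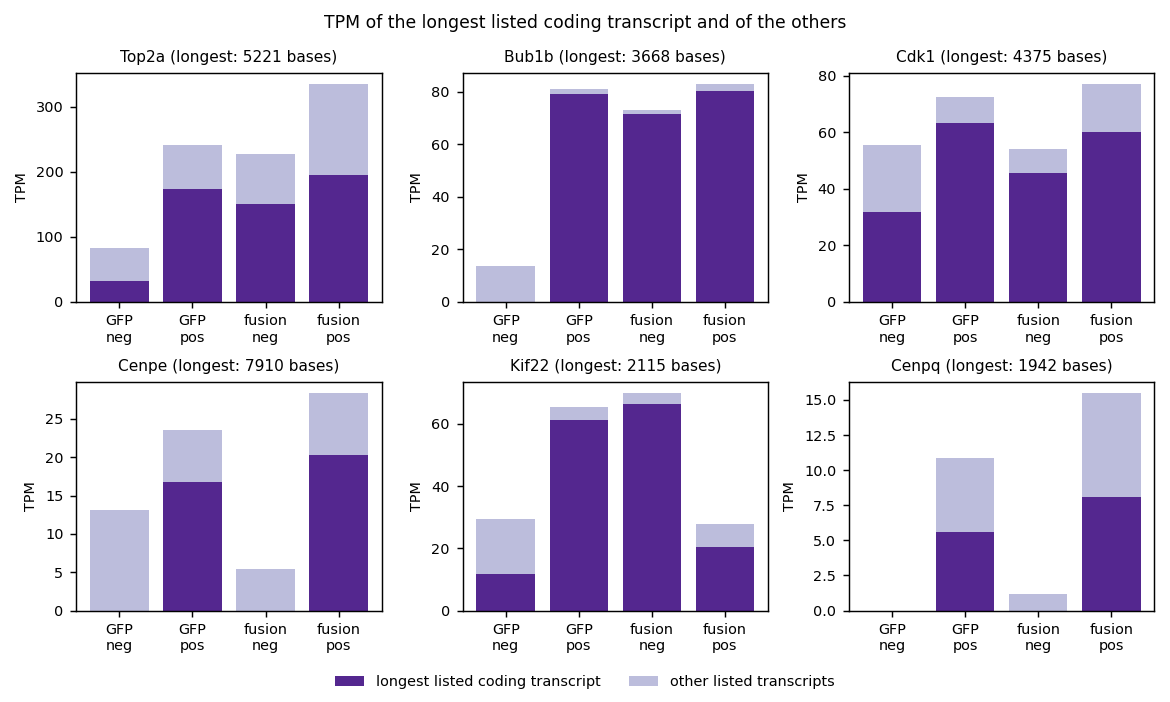
TPM of the longest listed coding transcript (dark) and of all other listed transcripts (light) of 6 genes in the 4 libraries, 1 library per bar, where GFP and fusion name the line. Bub1b, Cenpe and Cenpq have no dark bar in the GFP line's GFP-negative library, and Cenpe and Cenpq have none in the GFP-Zscan4c line's GFP-negative library.

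Listed zeros were more frequent among members with long transcripts. In the GFP line's GFP-negative library, 3 of 16 members with a longest transcript from 1000 to under 2000 bases were at 0 (18.8%), and 8 of 17 with 5000 bases or more (47.1%). Coding genes ran from 28.8% to 38.2% over the same bins. Members at 0 had a median longest transcript of 4577 bases, a median GC content of 44.1% and a median level of 10.8 TPM over the other 3 libraries, against 3326 bases, 48.6% and 46.3 TPM in the 45 above 0. They had a median of 1 listed transcript against 4. Among the 17 members with a single listed transcript, 12 were at 0 (70.6%, against 28.0% of all such genes). With 2 or 3 listed transcripts 3 of 16 members were at 0 (18.8%, against 40.7% of all such genes), and with 4 or more 8 of 35 (22.9%, against 18.0%), so the share did not follow the number of transcripts step by step. The part of length, level and number of transcripts in the zeros was not tested.

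**Figure D4:**
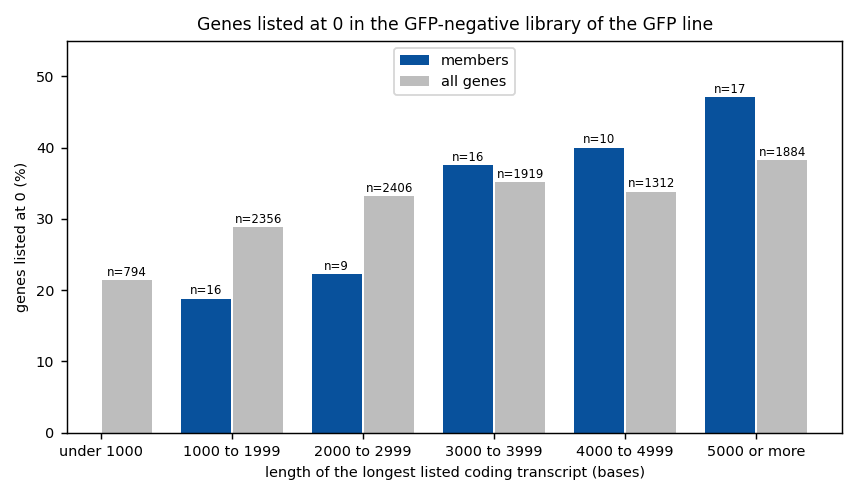
Share of genes listed at 0 in the GFP line's GFP-negative library, by length of the longest listed coding transcript, for the members (blue) and all genes tested that have such a transcript (grey), with the number of genes above each bar. The members rise from 18.8% to 47.1% with length.

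Promoter letters, which the rule did not use, were counted next. RefSeq promoter windows (GRCm38.p6) were found for 59 of the 68, and the 250 bases before each start were searched on both strands for TTTGAA or TTCGAA, the core of the cell cycle genes homology region (CHR) that MuvB complexes bind, and for CCAAT, the box bound by NF-Y. Within 100 bases of the start, the CHR letters were in 13 of 63 member promoters (20.6%), in 3.58% of promoters of all genes tested and in 6.13% of all RefSeq promoters. CCAAT stood at least 2 times in 24 of the 63 (38.1%), against 14% of promoters of all genes tested. Without the transport and cilia kinesins and the 3 other names, CHR letters were in 12 of 51 (23.5%), and in those left out in 1 of 12, that of Kif24. A match is a description of the letters and not a measured binding site.

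The promoters of 5 genes with the CHR letters near the start are printed as examples, 130 bases up to the start, 5′ to 3′ on the gene's strand, with CHR and CCAAT letters in capitals in either orientation. The first 3 belong to genes above 0 in every library, and the other 2 to genes that the GFP line's GFP-negative library listed at 0.
Top2a: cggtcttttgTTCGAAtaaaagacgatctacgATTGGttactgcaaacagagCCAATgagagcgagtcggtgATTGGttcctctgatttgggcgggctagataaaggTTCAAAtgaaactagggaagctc
Cdc20: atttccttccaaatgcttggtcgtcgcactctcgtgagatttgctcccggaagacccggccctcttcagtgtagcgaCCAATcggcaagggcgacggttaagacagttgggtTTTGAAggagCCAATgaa
Cdk1: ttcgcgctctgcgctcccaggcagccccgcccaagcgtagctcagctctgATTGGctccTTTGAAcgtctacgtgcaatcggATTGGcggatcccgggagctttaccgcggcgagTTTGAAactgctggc
Kif11: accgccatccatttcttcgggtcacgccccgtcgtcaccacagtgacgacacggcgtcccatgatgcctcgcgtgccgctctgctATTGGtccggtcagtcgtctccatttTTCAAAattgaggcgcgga
Mki67: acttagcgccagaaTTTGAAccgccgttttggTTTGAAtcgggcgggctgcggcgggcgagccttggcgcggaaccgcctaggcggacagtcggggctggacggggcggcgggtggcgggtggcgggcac
The stretches are chr11:99024190-99024319 (minus strand) for Top2a, chr4:118437344-118437473 (minus strand) for Cdc20, chr10:69352913-69353042 (minus strand) for Cdk1, chr19:37376252-37376381 (plus strand) for Kif11 and chr7:135716380-135716509 (minus strand) for Mki67.
In its 250 bases Top2a carries CCAAT letters 6 times and CHR letters 4 times. Of the promoters of members at 0 in the GFP line's GFP-negative library, 3 of 23 had CHR letters near the start (13%) and 4 of 23 had CCAAT 2 or more times (17.4%). Of those of members above 0 in it, 10 of 40 had such CHR letters (25.0%) and 20 of 40 had CCAAT 2 or more times (50.0%). These shares were not tested against each other. Cenpe, Cenpq and Kif5c had no CHR letters in the 250 bases.

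Other genes of mitosis that the names do not take were listed by role: outer kinetochore and checkpoint, passenger complex and separase, cohesin and condensin, anaphase-promoting complex, spindle assembly and cytokinesis, the Foxm1, Mybl2 and MuvB regulators, and G1 cyclins. The lists hold 103 names, older and newer symbols of 1 gene counted apart, and 96 passed the same limit. In the GFP-Zscan4c line 6 of the 96 were 2-fold or more higher (6.25%, against 9.52% of all genes) and 0 lower (against 3.79%), with a median log2 ratio of 0.21. In the GFP line 39 were higher (40.6%, against 37.4%) and 3 lower (3.12%, against 5.88%), with a median of 0.45 over the 96 and 0.12 over the 72 above 0 in every library. That line's GFP-negative library listed 24 of the 96 at 0 (25.0%, against 27.3%). Together these shares lie near those of all genes, but the lists differed in the GFP line. Of 23 outer kinetochore and checkpoint genes, 60.9% were 2-fold or more higher and 39.1% were at 0 in that library. For 19 of spindle assembly and cytokinesis these were 57.9% and 31.6%, and for the members 52.9% and 33.8%. The anaphase-promoting complex (14) had 14.3% and 0.0%, and the passenger complex and separase (7) 0.0% and 14.3%. The remaining lists lay between, at 33.3% to 42.9% and 11.1% to 29.4%. In each line the median of the 96 lay between that of all genes and that of the members.

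The gene furthest apart in each list was as follows. Cdca8 (borealin), of the passenger complex, was at 108, 102, 26.5 and 112 TPM, low in the GFP-Zscan4c line's GFP-negative library only. Smc2, a condensin subunit, was listed at 0, then at 38.6, 25.8 and 43.1 TPM, and Zw10, which brings dynein to kinetochores, was listed at 0, then at 34.7, 21 and 28.8 TPM. Cep55, of the last step of cytokinesis, was listed at 0, then at 26.5, 14.6 and 31.6 TPM. These last 3 are without a fold, as each has a listed 0. Cdc27, a subunit of the anaphase-promoting complex, was at 4.25, 13.6, 12.7 and 18.6 TPM. Lin9, of the MuvB core, was listed at 0, then at 7.88, 5.98 and 7.65 TPM. Ccne1, the G1 cyclin E1, was at 5.92, 58.3, 56.2 and 56.6 TPM. These 7 were chosen by the size of their ratios, so which library is low in them is a description only.

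The GFP-positive libraries of the 2 lines, which differ in the construct and the clone, were close for these genes. Of the 68, 60 lay within 1.5 times of each other (88.2%, against 74.4% of all genes), 5 were over 1.5 times higher in the GFP-Zscan4c line and 3 over 1.5 times lower. Of the 14379 genes tested, 1979 were over 1.5 times higher there, 1450 over 1.5 times lower, and 255 had a listed 0 in either library. The lower members included Kif22, at 65.5 and 27.8 TPM, and Kif13a, at 15.1 and 4.86 TPM. The GFP line's GFP-positive library and the GFP-Zscan4c line's GFP-negative library, which differ in status as well, had 61 of 68 within 1.5 times (89.7%, against 69.9%).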

How the data were processed

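Each of the 4 sorted populations is 1 poly-A RNA library. The authors deposited TPM per transcript (58853 transcripts in each table), and per the submitters' processing notes CASAVA, HISAT2 2.1.0, StringTie 1.3.5 and the build GRCm38 were used; for options, annotation release and the choice of listed transcripts: not given in the sources used here. TPM were summed per symbol, and 14379 genes that reached 1 TPM in 2 or more libraries were kept. TPM keep no counts, so depth is unknown and no interval can be given. Ratios are log2(TPM + 1), which understates the change of low genes; a gene 2-fold apart is called without a test. limma 3.58.1 (R 4.3.3) fitted GFP status and line, with trend and robust options, two-sided. The script was tested on simulated data with even noise, no listed zeros and the same change in both lines. That test does not cover the zeros and the unlike lines of these data. Transcript lengths, biotypes and coordinates are from GENCODE M21, promoters from RefSeq (GRCm38.p6). Genes were named by rule: the highest levels and the largest and smallest ratios shared by the lines in each role, members with zeros, those nearest the filter, and the furthest gene of each pathway list. Genes outside the rule were chosen after their values were seen. Members and lists were chosen with earlier results of these data known. Alternatives were other pseudocounts, filters and scalings, no line term, and each library left out.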

Additional observations from a re-analysis of the deposited data

Results flagged for a closer look

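Kif22 was 2-fold or more apart in opposite directions in the 2 lines while above 0 in every library. Its log2 ratio of GFP-positive over GFP-negative cells was 1.13 in the GFP line, while in the GFP-Zscan4c line it was -1.30. With 1 library per population the difference between the lines was not tested.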

How the results depend on the processing

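In the GFP line, members 2-fold higher numbered 36, and 13 of 45 when only genes above 0 in all 4 libraries, or in the 2 compared (chosen after seeing the data), were used; those higher by any amount went from 55 to 32 of 45. The member count 2-fold lower went from 1 to 0 with a pseudocount of 5 TPM or a limit of 5 TPM, and to 2 under quantile normalization. The median went from 1.13 to 1.24 with a pseudocount of 0.1 TPM, 0.73 with 5 TPM, 0.40 without genes at 0 and 0.64 under quantile normalization, where Kif5c reversed to -0.09. In the GFP-Zscan4c line, members 2-fold lower went from 2 to 1 with 5 TPM or without genes at 0; the median of 0.28 became 0.13 under median-ratio scaling and 0.14 under quantile normalization, which turned that of all genes from 0.15 to -0.07. Members 2-fold higher in both lines went from 2 to 1 with 5 TPM, without genes at 0 and under quantile normalization. limma called 0 of all genes, 3 with 5 TPM and 328 under quantile normalization (5 members). With each library left out in turn, where the model held GFP status alone, it called 0 to 4204 genes and 0 to 33 members, the highest without the GFP-Zscan4c line's GFP-negative library. Without the line as a replicate block it called 0 members and 0 genes. The cause of these shifts was not tested. Unknown depth and 1 library per population limit every value.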
